A study of Mus musculus with 12 samples.

Results

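The extracellular matrix genes of the mouse testis were described as a set of 40 genes: 8 interstitial collagens, 16 basement membrane genes, 10 matrix glycoproteins, proteoglycans and elastic fibre genes, and 6 crosslinking and remodelling genes. Members were chosen by gene symbol, and each was read from 1 array probe, the one with the highest mean among its probes detected (detection p under 0.05) on at least 3 of 12 arrays. Of the 40 genes, 33 were measured in this way, among 11076 genes measured in all. Levels are log2 normalized intensities, so a difference of 1 is a doubling, and the level of one gene cannot be set against that of another.

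Whole testes of mice aged 10 days were profiled on bead arrays (Illumina MouseWG-6 v2), and the series addresses what the retinoblastoma protein Rb does in Sertoli cells, the somatic cells that nurse germ cells. Mice with floxed Rb were crossed with Amh-Cre mice, whose Cre is driven by the anti-Müllerian hormone promoter, active in Sertoli cells, so that the deletion was aimed at that cell type while all other testis cells were also in the RNA. The groups are SC-RbKO, the Sertoli cell Rb knockout (4 arrays, numbered 1 to 4), SC-Rb+/-, the group labelled as heterozygous (3 arrays, 5 to 7), and Wild Type (5 arrays, 8 to 12), all aged 10 days. The labels do not say whether Wild Type or SC-Rb+/- mice carried Cre or floxed alleles, nor whether the RNAs within a group are from separate mice, and a p-value here speaks only of the spread among the arrays. In a whole organ, fewer cells of a type and less RNA per cell cannot be told apart.

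The testis has both kinds of matrix. Fibrillar collagens are made by fibroblast-like cells, and form, with the beaded filaments of type VI collagen, the interstitial matrix between the tubules and the tunica around the organ. Sertoli cells and peritubular myoid cells together lay down the basement membrane of the seminiferous tubule, in which laminins and type IV collagen form networks that nidogens and perlecan join. Lysyl oxidase crosslinks collagen and elastin, matrix metalloproteinases cut matrix proteins, and TIMPs inhibit those proteases.

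The promoters of 5 collagen genes are shown because they belong to the fibrillar collagens with differing levels and to the type IV pairs that lie head to head. The windows run from 250 bases before to 50 after the transcript start, from RefSeq in build GRCm38.p6, on the gene's own strand: Col1a2 at chr6:4505368-4505667 on the plus strand, Col3a1 at chr1:45311288-45311587 on the plus strand, Col4a1 at chr8:11312777-11313076 on the minus strand, Col4a2 at chr8:11312555-11312854 on the plus strand and Col4a4 at chr1:82586800-82587099 on the minus strand. Capitals mark 3 motifs, searched on both strands, so that a match on the other strand appears as its reverse complement. The GC box was searched as GGGCGG. The CCAAT box and the TATA box, spelled TATAAA, were searched likewise, and no marked motifs overlap.
Col1a2: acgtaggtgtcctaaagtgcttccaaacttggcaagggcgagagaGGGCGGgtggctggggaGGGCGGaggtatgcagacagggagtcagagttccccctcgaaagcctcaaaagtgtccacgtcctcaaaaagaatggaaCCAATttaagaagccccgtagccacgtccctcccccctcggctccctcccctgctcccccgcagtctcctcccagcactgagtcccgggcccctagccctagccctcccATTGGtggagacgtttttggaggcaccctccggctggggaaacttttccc
Col3a1: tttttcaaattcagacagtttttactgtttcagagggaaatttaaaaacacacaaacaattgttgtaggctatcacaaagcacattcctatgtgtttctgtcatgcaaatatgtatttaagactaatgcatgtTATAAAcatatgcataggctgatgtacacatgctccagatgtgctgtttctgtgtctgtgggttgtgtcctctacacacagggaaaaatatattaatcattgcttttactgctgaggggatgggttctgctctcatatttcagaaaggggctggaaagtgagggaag
Col4a1: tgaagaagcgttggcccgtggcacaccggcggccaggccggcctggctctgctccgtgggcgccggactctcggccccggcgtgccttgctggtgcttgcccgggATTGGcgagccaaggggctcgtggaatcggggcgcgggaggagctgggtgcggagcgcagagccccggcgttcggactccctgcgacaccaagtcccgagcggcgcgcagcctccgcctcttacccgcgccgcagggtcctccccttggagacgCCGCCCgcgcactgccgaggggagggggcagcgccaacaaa
Col4a2: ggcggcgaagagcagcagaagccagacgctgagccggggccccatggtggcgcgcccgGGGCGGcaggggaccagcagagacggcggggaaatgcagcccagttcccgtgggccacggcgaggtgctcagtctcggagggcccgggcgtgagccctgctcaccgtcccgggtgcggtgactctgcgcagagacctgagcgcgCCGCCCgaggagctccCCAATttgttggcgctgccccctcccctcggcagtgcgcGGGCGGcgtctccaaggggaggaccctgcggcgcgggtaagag
Col4a4: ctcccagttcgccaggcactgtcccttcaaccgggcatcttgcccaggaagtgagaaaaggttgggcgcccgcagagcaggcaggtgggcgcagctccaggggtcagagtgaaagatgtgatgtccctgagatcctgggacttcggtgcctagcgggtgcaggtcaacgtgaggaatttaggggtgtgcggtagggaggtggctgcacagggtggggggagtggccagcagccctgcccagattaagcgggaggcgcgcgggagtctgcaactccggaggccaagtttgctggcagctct

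The windows of Col4a1 and Col4a2 overlap on opposite strands, and the Col4a2 window held 3 GC boxes and 1 CCAAT, against 1 of each in the Col4a1 window. The GC box of the Col4a1 window is the last GC box of the Col4a2 window, read on the other strand. The same site is thus counted in both windows. Col1a2 had 2 GC boxes and 2 CCAAT, Col3a1 had 1 TATAAA, and Col4a4 had none of the motifs. Across the 32 promoter windows found for 27 of the 40 members, 20 held a GC box, 11 a CCAAT and 2 a TATAAA, while the shares over all 32851 promoter windows of the same length were 35.66, 37.41 and 13.62 percent. The E2F motif, searched as TTTCCCGC, TTTCGCGC, TTTGCCGC or TTTGGCGC on both strands, was in 0 of the 32 windows and in 2.265 percent of all windows. A match is a description of these letters only.

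Of the 40 members, 38 had a probe in the platform annotation, and Col6a3 and Fbn1 were not analysed here. Col5a2, Lama4, Lamb1, Fbln5 and Postn had probes of which none passed detection. Col5a2 and Lama4 each had 1 probe detected on 2 arrays, and no probe of the other 3 was detected on any. The measured set therefore holds 6 of 8 interstitial collagens, 14 of 16 basement membrane genes, 7 of 10 glycoproteins, proteoglycans and elastic fibre genes, and 6 of 6 crosslinking and remodelling genes.

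Between 39.3 and 43.7 percent of probes were detected per array. The targeted gene, Rb1, had mean levels of 8.82 in SC-RbKO, 9.04 in SC-Rb+/- and 9.07 in Wild Type testes, and its SC-RbKO minus Wild Type difference of -0.26 (SE 0.15) had a limma unadjusted p of 0.103 and an adjusted p of 1. At adjusted p under 0.05 limma called 0 of 11076 genes in each comparison, so no gene below passed that threshold. Unadjusted p-values under 0.05 numbered 284 for SC-RbKO against Wild Type, 1082 for SC-Rb+/- against Wild Type and 775 for SC-RbKO against SC-Rb+/-. The text therefore gives levels, differences and counts at an unadjusted limma p under 0.05. Array SC-Rb+/- 6 stood apart, with the highest level of all arrays for 25.2 percent of genes and the lowest for 25.8 percent, and it had the highest level for 14 and the lowest for 7 of the 33 matrix genes. Meiotic spermatocyte markers averaged -0.89 on that array, 0.85 on SC-Rb+/- 7 and 0.76 on Wild Type 12, relative to the Wild Type mean.

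In SC-RbKO against Wild Type testes, all 6 measured interstitial collagens had higher mean levels, led by Col1a1 at 1.42-fold, but none of the 33 matrix genes passed the adjusted threshold. The difference was above 0 for 29 of 33 members, against 50.5 percent of all genes, with a median of 0.068 against 0.0016 for all genes. It was above 0 for 6 of 6 interstitial collagens (median 0.15), 12 of 14 basement membrane genes (0.033), 6 of 7 glycoproteins, proteoglycans and elastic fibre genes (0.077) and 5 of 6 crosslinking and remodelling genes (0.069). Some of the 29 were near 0, with Hspg2 at 0.0023, Lamb2 at 0.0085, and Col4a2 and Sparc at 0.010. All members were read on the same arrays, so these are not counts of independent results. When arrays were scaled to the same median instead of quantile normalized, 23 of 33 members and 8 of 14 basement membrane genes lay above 0, and 6 of 6 interstitial collagens still did. The basement membrane median was 0.016, with 7 of 14 above 0, without Wild Type 10, 0.058 without Wild Type 9 and 0.064 without SC-RbKO 3. The median of all members was 0.037 without Wild Type 8 and 0.11 without SC-RbKO 3. Leaving out any 1 array left 6 of 6 interstitial collagens above 0, whereas the other detected Col3a1 probe gave -0.032. At an unadjusted p under 0.05 there was 1 member, Col1a1, against 2.56 percent of all genes. No member had groups that did not overlap, as had 1.16 percent of all genes with SC-RbKO higher and 0.776 percent with SC-RbKO lower.

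**Figure D1:**
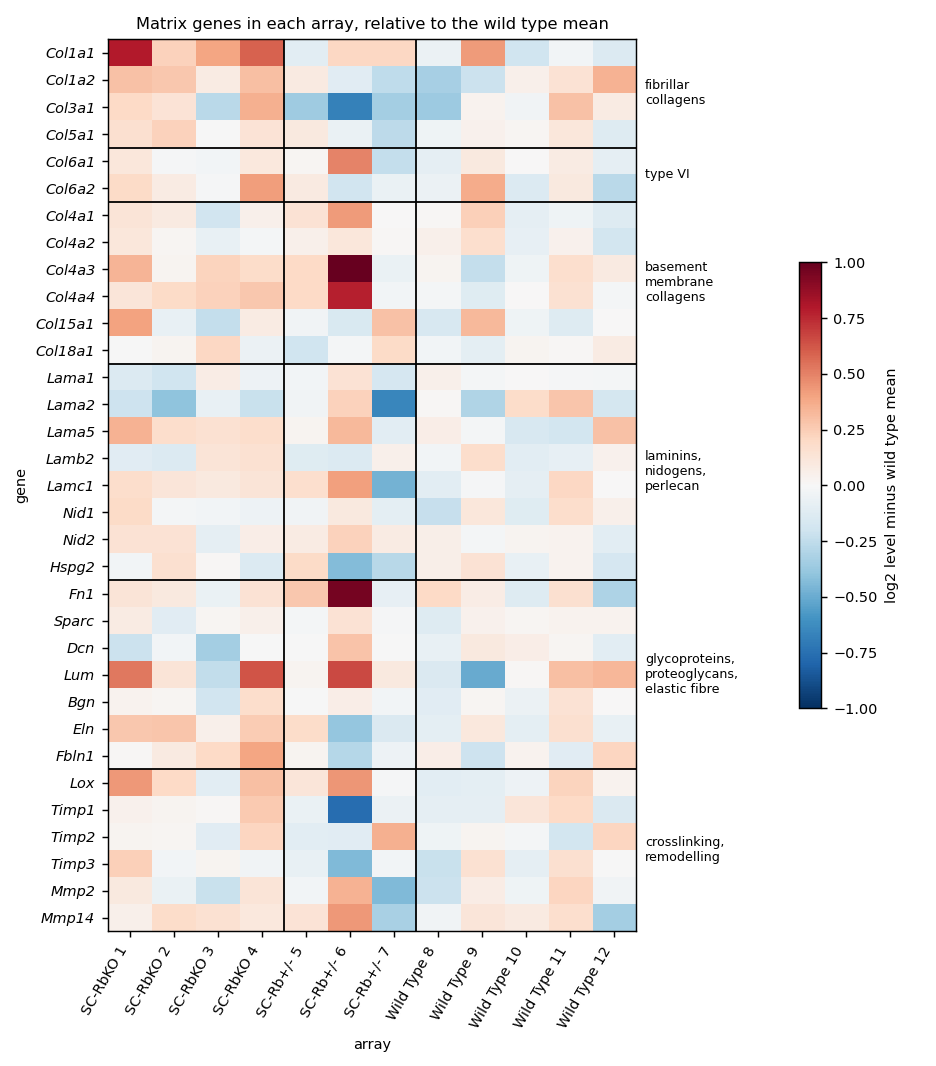
Heat map of the 33 measured matrix genes (rows, grouped by role) on the 12 arrays (columns: 4 SC-RbKO, 3 SC-Rb+/-, 5 Wild Type). Colour is the log2 level minus the Wild Type mean of that gene. Col1a1 is above the Wild Type mean on all 4 SC-RbKO arrays, and SC-Rb+/- 6 holds the extreme values of many rows.

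Col1a1 encodes the alpha 1 chain of type I collagen, the main fibrillar collagen. Its levels were 11.76, 11.21, 11.37 and 11.56 on the SC-RbKO arrays, 10.87, 11.18 and 11.18 on the SC-Rb+/- arrays, and 10.91, 11.40, 10.77, 10.95 and 10.83 on the Wild Type arrays. SC-RbKO overlapped Wild Type only through Wild Type 9, whose 11.40 lay above SC-RbKO 2 and 3. The SC-RbKO minus Wild Type difference was 0.50 (SE 0.15, 95% interval 0.19 to 0.81, limma unadjusted p = 0.00419, adjusted p = 1), a fold of 1.42 (1.14 to 1.76). Leaving out 1 array at a time moved it between 0.41, without SC-RbKO 1, and 0.61, without Wild Type 9. SC-RbKO also lay above SC-Rb+/- on every array, by 0.40 on average (SE 0.17, unadjusted p = 0.0309, adjusted p = 0.657), while SC-Rb+/- minus Wild Type was 0.10 (adjusted p = 0.814).

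Col1a2 encodes the partner alpha 2 chain of type I collagen, and its promoter is printed above. Levels were 5.53, 5.51, 5.32 and 5.53 in SC-RbKO, 5.32, 5.12 and 4.98 in SC-Rb+/-, and 4.90, 5.02, 5.29, 5.38 and 5.58 in Wild Type testes. The signal was near background, being detected on 4 of 4, 2 of 3 and 3 of 5 arrays of these groups, so the probe says less than that of Col1a1. SC-RbKO minus Wild Type was 0.24 (SE 0.13, limma unadjusted p = 0.101), and the groups overlapped, with Wild Type 12 the highest array and Wild Type 11 above SC-RbKO 3. It was 0.32 without Wild Type 12, 0.15 without Wild Type 8 and 0.12 with a background offset of 50. SC-RbKO minus SC-Rb+/- was 0.33 (SE 0.15, unadjusted p = 0.0495, adjusted p = 0.657).

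Col3a1, the chain of type III collagen, which forms thin fibres together with type I, differed in another order. Its levels were 6.54, 6.48, 6.07 and 6.69 on the SC-RbKO arrays, 5.99, 5.66 and 6.00 on the SC-Rb+/- arrays, and 5.97, 6.37, 6.30, 6.63 and 6.42 on the Wild Type arrays. All 3 SC-Rb+/- arrays lay below all SC-RbKO arrays and below 4 of the 5 Wild Type arrays. SC-Rb+/- minus Wild Type was -0.46 (SE 0.16, limma unadjusted p = 0.014, adjusted p = 0.5), SC-RbKO minus SC-Rb+/- was 0.56 (SE 0.17, unadjusted p = 0.00539, adjusted p = 0.657), and SC-RbKO minus Wild Type was 0.11 (SE 0.15).

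A second detected Col3a1 probe ran the opposite way. Its means were 5.89 in SC-RbKO, 6.39 in SC-Rb+/- and 5.93 in Wild Type testes, so SC-Rb+/- minus Wild Type was 0.46 and SC-RbKO minus SC-Rb+/- was -0.49. With the mean of both probes SC-Rb+/- minus Wild Type was 0.00014. The direction of Col3a1 in SC-Rb+/- testes is thus not settled by these arrays.

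The other interstitial collagens differed less. Col5a1, the type V chain that helps to start type I fibrils, had means of 10.77 ± 0.10 in SC-RbKO (SD, n = 4), 10.56 ± 0.18 in SC-Rb+/- (n = 3) and 10.64 ± 0.09 in Wild Type testes (n = 5). Col6a2, a chain of type VI collagen, had levels of 10.26, 10.15, 10.06 and 10.49 in SC-RbKO, 10.16, 9.88 and 10.00 in SC-Rb+/-, and 10.01, 10.45, 9.94, 10.17 and 9.80 in Wild Type testes. These groups overlapped, with SC-RbKO 4 and Wild Type 9 the highest of their groups, and SC-RbKO minus Wild Type was 0.17 (SE 0.13, limma adjusted p = 1). It was 0.087 without SC-RbKO 4 and 0.26 without Wild Type 9. Col6a1, the partner chain, differed by 0.044 (SE 0.12), and its highest level was 12.98 on SC-Rb+/- 6.

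**Figure D2:**
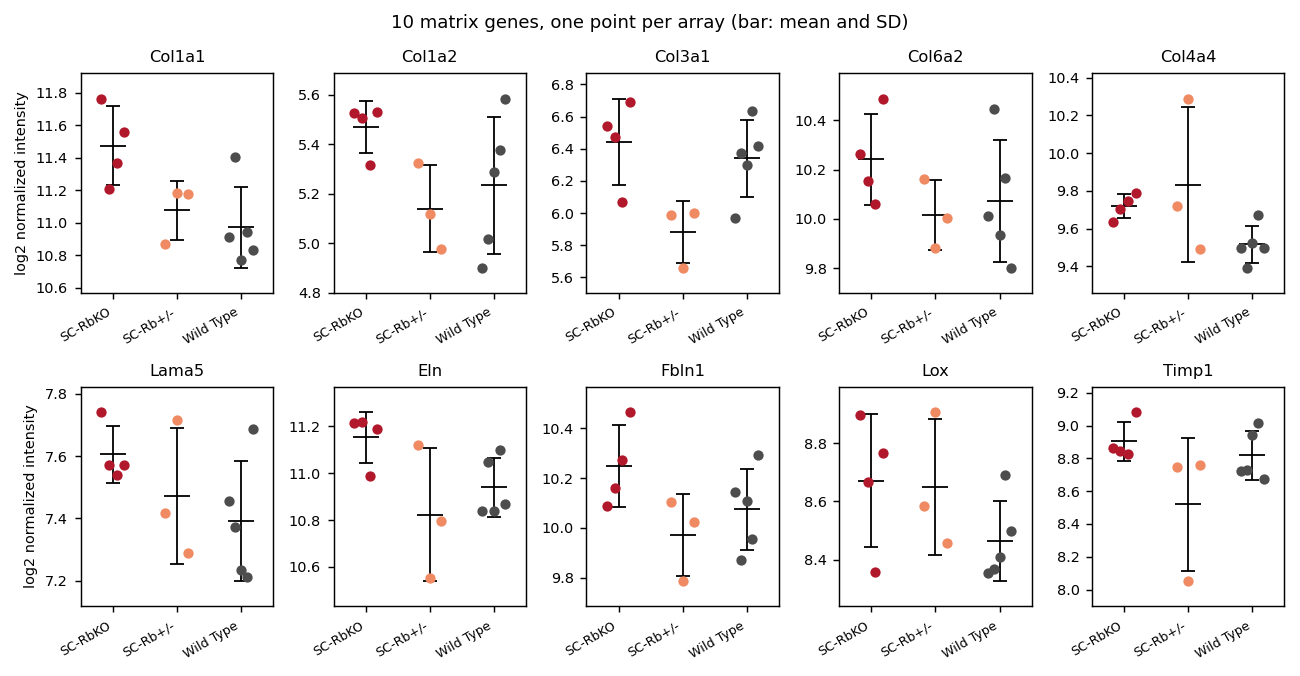
Log2 normalized intensity of 10 matrix genes, 1 point per array, with SC-RbKO (n = 4) at the left, SC-Rb+/- (n = 3) in the middle and Wild Type (n = 5) at the right of each panel, bars giving mean and SD. Vertical axes differ between panels. Col1a1 in SC-RbKO is above all Wild Type arrays but 1, and Timp1 and Eln have a low point on SC-Rb+/- 6.

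Among basement membrane collagens, Col4a1 and Col4a2, which form the common type IV network, had almost the same means in SC-RbKO and Wild Type testes: 12.60 ± 0.14 against 12.58 ± 0.14 for Col4a1, and 11.80 ± 0.08 against 11.79 ± 0.14 for Col4a2 (SD, n = 4 and 5). The 95% intervals of these differences ran between -0.22 and 0.26 and between -0.17 and 0.20. Col15a1 and Col18a1, whose products are tied to basement membranes, differed by 0.045 (SE 0.14) and 0.043 (SE 0.093).

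Col4a4 and Col4a3, which lie head to head and belong to another type IV network, reached their highest levels on SC-Rb+/- 6. Col4a4 had 9.64, 9.70, 9.75 and 9.79 in SC-RbKO, 9.72, 10.29 and 9.49 in SC-Rb+/-, and 9.50, 9.39, 9.52, 9.67 and 9.50 in Wild Type testes. Of the SC-RbKO arrays only SC-RbKO 1, at 9.64, lay below the highest Wild Type array, and SC-RbKO minus Wild Type was 0.20 (SE 0.13, limma unadjusted p = 0.149, adjusted p = 1). SC-Rb+/- minus Wild Type was 0.32 (SE 0.14, unadjusted p = 0.0467, adjusted p = 0.5), but 0.089 without SC-Rb+/- 6. Col4a3 had 10.58 on SC-Rb+/- 6 and lay between 9.19 and 9.77 on the other 11 arrays. Its SC-Rb+/- minus Wild Type difference was 0.43, and 0.065 without that array. Of the other 2 detected Col4a4 probes, the brighter gave 0.16 for SC-RbKO and 0.25 for SC-Rb+/- against Wild Type, and the dimmer gave -0.040 for SC-RbKO and -0.29 for SC-Rb+/- against Wild Type.

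Of the laminins, nidogens and perlecan, Lama5, the alpha 5 chain of mature basement membranes, had the smallest p in SC-RbKO against Wild Type testes. Its levels were 7.74, 7.57, 7.54 and 7.57 in SC-RbKO, 7.42, 7.71 and 7.29 in SC-Rb+/-, and 7.45, 7.37, 7.23, 7.21 and 7.69 in Wild Type testes. All SC-RbKO arrays lay above 4 of 5 Wild Type arrays, Wild Type 12 being the exception. The difference was 0.21 (SE 0.12, limma unadjusted p = 0.0863, adjusted p = 1). Lama2, the alpha 2 chain known from muscle basement membranes, had the lowest difference of all members, -0.23 (SE 0.17), with Lama1 at -0.078. Lamb2, Lamc1, Nid1, Nid2 and Hspg2 (perlecan) lay between 0.0023 and 0.13.

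Nid2, which links laminin and type IV collagen networks, was the only member with all SC-Rb+/- arrays above all Wild Type arrays. Its levels were 9.46, 9.61 and 9.46 in SC-Rb+/- testes, against 9.43, 9.36, 9.40, 9.42 and 9.28 in Wild Type testes, and the difference was 0.13 (SE 0.086, limma adjusted p = 0.564). Of all genes, 1.02 percent had such a gap in this direction and 1.66 percent in the other, so 1 of 33 members is near the background.

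**Figure D3:**
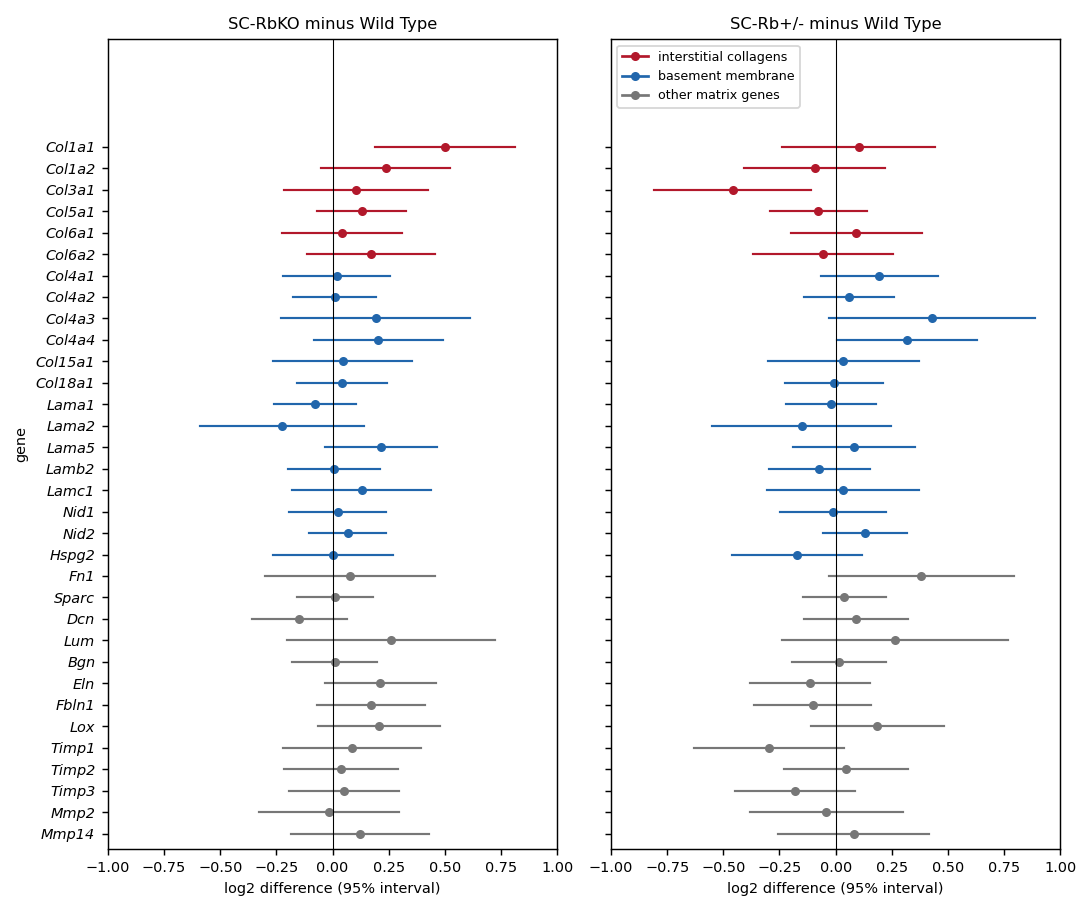
Log2 differences with 95% intervals from limma for the 33 measured matrix genes, SC-RbKO minus Wild Type at the left and SC-Rb+/- minus Wild Type at the right, with interstitial collagens in red, basement membrane genes in blue and other matrix genes in grey. Both panels share the same Wild Type arrays. The interval of Col1a1 lies above 0 at the left, and those of Col3a1 and Col4a4 leave 0 out at the right.

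Among glycoproteins and elastic fibre genes, Eln encodes elastin, the core of elastic fibres. Its levels were 11.21, 11.22, 10.99 and 11.19 in SC-RbKO, 11.12, 10.55 and 10.80 in SC-Rb+/-, and 10.84, 11.05, 10.84, 11.10 and 10.87 in Wild Type testes. SC-RbKO arrays other than SC-RbKO 3 lay above all arrays of both other groups. SC-RbKO minus Wild Type was 0.21 (SE 0.11, limma unadjusted p = 0.0838, adjusted p = 1). SC-RbKO minus SC-Rb+/- was 0.33 (SE 0.13, unadjusted p = 0.0249, adjusted p = 0.657), or 0.19 without SC-Rb+/- 6.

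Fbln1, fibulin 1, a glycoprotein of elastic fibres and basement membranes, had 4 detected probes. The brightest gave 10.09, 10.16, 10.27 and 10.47 in SC-RbKO, 10.11, 9.79 and 10.02 in SC-Rb+/-, and 10.14, 9.87, 10.11, 9.96 and 10.29 in Wild Type testes. Groups overlapped, and SC-RbKO minus Wild Type was 0.17 (SE 0.11, limma unadjusted p = 0.145, adjusted p = 1), with SC-RbKO minus SC-Rb+/- at 0.28 (unadjusted p = 0.0488, adjusted p = 0.657). The other 3 probes, examined after seeing the data, gave larger SC-RbKO minus Wild Type differences of 0.38, 0.40 and 0.34, with unadjusted p of 0.0165, 0.0106 and 0.00535 in a limma fit over all detected probes and an adjusted p of 1 each. On the dimmest probe the SC-RbKO levels of 7.52, 7.57, 7.77 and 7.73 lay above the Wild Type levels of 7.50, 7.14, 7.17, 7.23 and 7.50. All 4 probes agreed in sign between SC-RbKO and each other group.

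**Figure D4:**
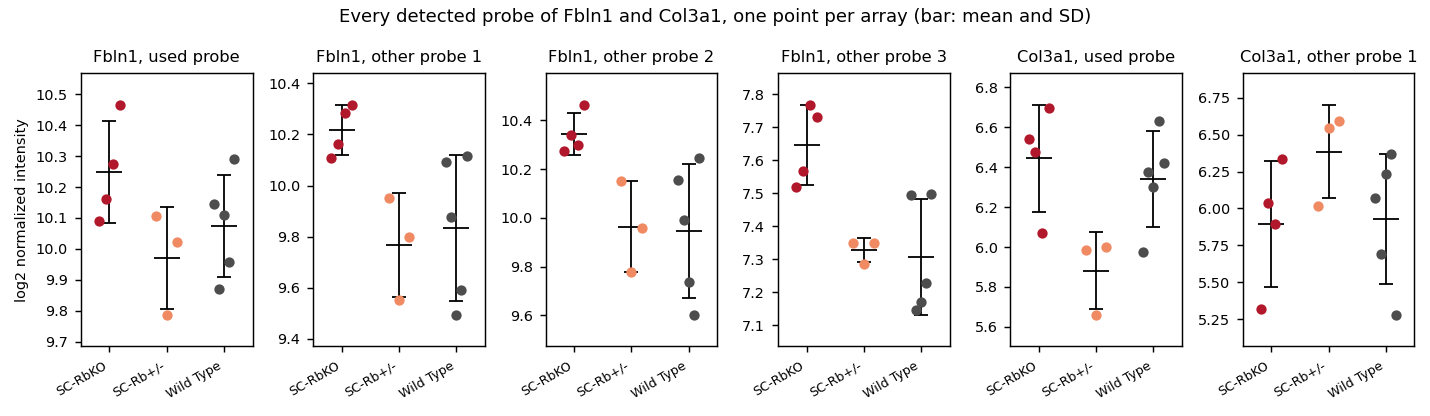
Log2 normalized intensity on each detected probe of Fbln1 (4 panels) and Col3a1 (2 panels), 1 point per array, with SC-RbKO at the left, SC-Rb+/- in the middle and Wild Type at the right of each panel, bars giving mean and SD. SC-RbKO means are the highest on all 4 Fbln1 probes, whereas the SC-Rb+/- mean is the lowest on the used Col3a1 probe and the highest on the other.

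Lum, lumican, a small proteoglycan of collagen fibrils, had the largest spread within groups, with means of 9.51 ± 0.40 in SC-RbKO (SD, n = 4), 9.51 ± 0.35 in SC-Rb+/- (n = 3) and 9.25 ± 0.35 in Wild Type testes (n = 5). Dcn, decorin, another such proteoglycan, was the 1 member of this group below 0 in SC-RbKO against Wild Type testes, at -0.15 (SE 0.098). Fn1, fibronectin, reached 10.19 on SC-Rb+/- 6 and lay between 8.93 and 9.51 elsewhere. Bgn (biglycan) and Sparc, a collagen-binding glycoprotein, differed by 0.0089 and 0.010.

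Among crosslinking and remodelling genes, Lox, lysyl oxidase, had levels of 8.90, 8.67, 8.36 and 8.77 in SC-RbKO, 8.58, 8.91 and 8.46 in SC-Rb+/-, and 8.36, 8.37, 8.41, 8.69 and 8.50 in Wild Type testes. SC-RbKO 3 was among the lowest arrays and the other 3 SC-RbKO arrays lay above 4 of the 5 Wild Type arrays. The difference was 0.21 (SE 0.13, limma unadjusted p = 0.124, adjusted p = 1). Leaving out SC-RbKO 1 gave 0.13 and leaving out SC-RbKO 3 gave 0.31. Timp1, an inhibitor of metalloproteinases, had 8.86, 8.85, 8.83 and 9.08 in SC-RbKO, 8.75, 8.05 and 8.76 in SC-Rb+/-, and 8.73, 8.73, 8.94, 9.02 and 8.68 in Wild Type testes. SC-RbKO lay above SC-Rb+/- on every array, by 0.39 on average (SE 0.16, limma unadjusted p = 0.0328, adjusted p = 0.657), or 0.15 without SC-Rb+/- 6. Timp2, Timp3 and the proteases Mmp2 and Mmp14 differed by -0.015 to 0.12 between SC-RbKO and Wild Type testes.

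In SC-Rb+/- against Wild Type testes the interstitial collagens had no common direction: 2 of 6 lay above 0 (median -0.067), while 8 of 14 basement membrane genes did (median 0.034). All members together had 18 of 33 above 0, against 47.7 percent of all genes, with a median of 0.034 against -0.010. At an unadjusted p under 0.05 there were 2 members, Col4a4 higher and Col3a1 lower, against 9.77 percent of all genes (3.67 percent higher and 6.09 percent lower). With median scaling 9 of 33 members lay above 0, with a median of -0.062 against -0.036 for all genes, so the balance of signs in this comparison turned with the scaling. It turned as well on leaving out SC-Rb+/- 6, with 13 of 33 above 0 and a median of -0.014, or Wild Type 8, with 16 of 33 and -0.0055. Without SC-Rb+/- 6 the basement membrane median was -0.020, and without SC-Rb+/- 7 the interstitial median was 0.0027.

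In SC-RbKO against SC-Rb+/- testes, 6 of 33 members had an unadjusted p under 0.05, against 7.0 percent of all genes, and all 6 were higher in SC-RbKO: Col1a1, Col1a2, Col3a1, Eln, Fbln1 and Timp1, against 4.58 percent of all genes higher and 2.42 percent lower. Adjusted p-values of all 33 lay between 0.657 and 0.998. Col1a1, Col3a1 and Timp1 had groups that did not overlap with SC-RbKO higher, 3 of 33 members against 2.93 percent of all genes, and 0 had SC-RbKO lower, against 2.31 percent. Without Col3a1, whose other detected probe gave -0.49, these counts were 5 of 32 and 2 of 32. The median difference was 0.28 for interstitial collagens, with 5 of 6 above 0, and -0.020 for basement membrane genes, with 7 of 14 above 0. For all genes it was 0.013, with 53.0 percent above 0. Of all 33 members 19 lay above 0 (median 0.025). Without SC-Rb+/- 6, 10 of 14 basement membrane genes (median 0.046) and 26 of 33 members (0.12) lay above 0, with an interstitial median of 0.27. With median scaling these counts were 8 of 14 (0.034) and 25 of 33 (0.093), so the basement membrane balance turned with that array and with the scaling. Without Wild Type 12, SC-Rb+/- 6 and SC-Rb+/- 7 the interstitial median was 0.11, a value that sets SC-RbKO against 1 SC-Rb+/- array. The comparisons share arrays: SC-RbKO arrays enter 2 of them, as do those of each other group.

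Interstitial collagens were then set against basement membrane genes within each array, as the mean of each class relative to its Wild Type mean. The 6 interstitial collagens averaged 0.29, 0.16, 0.026 and 0.32 on the SC-RbKO arrays, -0.027, -0.058 and -0.16 on the SC-Rb+/- arrays, and -0.16, 0.13, -0.049, 0.12 and -0.033 on the Wild Type arrays. SC-RbKO arrays other than SC-RbKO 3 lay above all Wild Type arrays, and all 4 lay above the SC-Rb+/- arrays. This order against SC-Rb+/- depends on the Col3a1 probe: with the other one, the means were 0.16, 0.15, 0.066 and 0.32 on the SC-RbKO arrays and 0.048, 0.16 and 0.0064 on the SC-Rb+/- arrays, and the groups overlapped. Col1a1, at 0.50, and Col1a2, at 0.24 and near background, had the largest SC-RbKO minus Wild Type differences of the 6. Class means without these genes were not computed, so a shift of the whole class is not shown. The type VI mean ran between -0.020 and 0.26 on SC-RbKO arrays and between -0.18 and 0.24 on Wild Type arrays, and thus overlapped. The 14 basement membrane genes averaged 0.11, 0.0086, 0.031 and 0.041 on the SC-RbKO arrays, 0.044, 0.23 and -0.088 on the SC-Rb+/- arrays, and between -0.039 and 0.047 on the Wild Type arrays.

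The interstitial mean minus the basement membrane mean was 0.15 ± 0.12 in SC-RbKO (SD, n = 4), -0.14 ± 0.12 in SC-Rb+/- (n = 3) and 0 ± 0.095 in Wild Type testes (n = 5). Values ran between -0.0047 and 0.27 in SC-RbKO, between -0.28 and -0.071 in SC-Rb+/-, and between -0.14 and 0.10 in Wild Type testes. SC-RbKO thus overlapped Wild Type through SC-RbKO 3 and did not overlap SC-Rb+/-. With the other Col3a1 probe SC-RbKO did overlap SC-Rb+/-, the values being 0.13 ± 0.11 in SC-RbKO, between 0.036 and 0.28, and 0.011 ± 0.081 in SC-Rb+/-, between -0.066 and 0.095. With Col3a1 left out they were 0.17 ± 0.090 and -0.067 ± 0.081 and did not overlap. No p is given, since the members were chosen with results of these data known. The deposited column names hold a running number for each array, whose meaning no source used here gives, and the arrays were cut at the middle of these numbers into a lower and an upper 6, a split that no gap in the numbers marks. The SC-RbKO minus Wild Type value of this measure was 0.19 in the lower 6, with SC-RbKO 1, SC-RbKO 2, Wild Type 8 and Wild Type 9, and 0.12 in the upper 6, with SC-RbKO 3, SC-RbKO 4 and Wild Type 10 to 12. For Col1a1 the same differences were 0.33 and 0.61, and 0.49 with the split as a block, whereas Col1a2 gave 0.56 and 0.0057, and Col3a1 0.34 and -0.070.

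**Figure D5:**
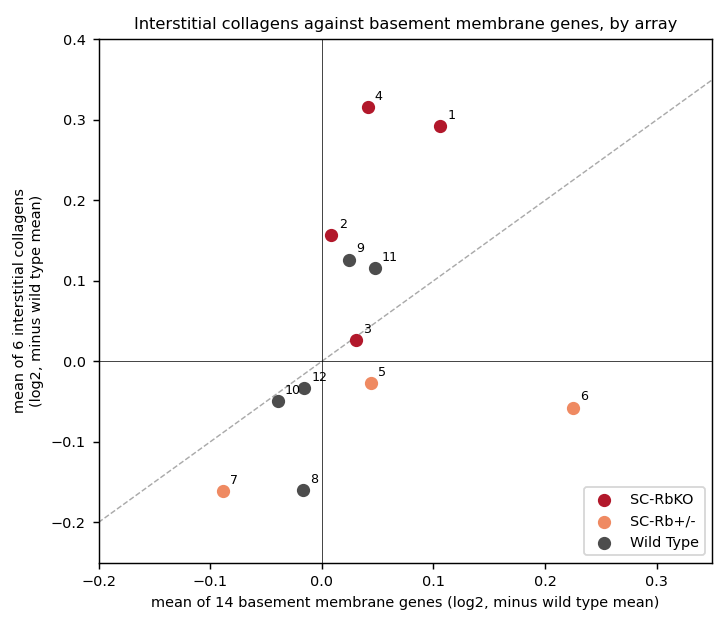
Mean of the 6 measured interstitial collagens (vertical) against the mean of the 14 measured basement membrane genes (horizontal) on each array, both in log2 units minus the Wild Type mean, with array numbers beside the points and a dashed line of equality. SC-RbKO 1, 2 and 4 lie above the line and above all Wild Type arrays, SC-RbKO 3 lies near the line, and the 3 SC-Rb+/- arrays lie below it with the Col3a1 probe used here. Col1a1 and Col1a2 had the largest SC-RbKO minus Wild Type differences of the 6, and a shift of the whole class is not shown.

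Markers of cell types were set beside these means. The summed level adds linear intensities, so bright probes weigh most and the ranges do not speak for all markers of a type. Among them, Aard of Sertoli cells averaged 14.98 on SC-RbKO and on Wild Type arrays. Acta2 of myoid cells averaged 14.42 on SC-RbKO and 14.37 on Wild Type arrays. Sertoli cell markers, 14 of 17 measured, had a log2 summed level of 16.05 to 16.11 on SC-RbKO, 15.98 to 16.17 on SC-Rb+/- and 15.95 to 16.20 on Wild Type arrays, and no Dmrt1 probe passed the detection filter. Peritubular myoid and smooth muscle markers, 15 of 17, ran from 15.19 to 15.32, 15.22 to 15.34 and 15.09 to 15.23 in the same groups, without Cnn1 and Synpo2, whose probes did not pass the filter, and 11 of the 15 had SC-RbKO above Wild Type means. Stromal fibroblast markers, 13 of 17, ran from 12.70 to 12.86, 12.72 to 12.93 and 12.64 to 12.98, without Gli1, which did not pass, and 3 of the 13 had SC-RbKO above Wild Type. Of all genes, 50.5 percent had SC-RbKO above Wild Type. So had 4 of 14 Sertoli cell, 2 of 8 Leydig cell, 6 of 15 endothelial and 3 of 12 macrophage markers. Spermatogonium markers had 7 of 14 above Wild Type and meiotic spermatocyte markers 3 of 14, so a low count was not particular to fibroblast markers. The part of these cell types in the collagen differences was not tested.

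Markers of tunica, epididymis, fat, striated muscle and blood mostly did not pass the detection filter: 5 of 21 were measured and 13 others had probes of which none passed. The 5 were Upk3b of mesothelium, Myl1 of muscle, Adipoq of fat, and the blood genes Hba-a1 and Alas2, with SC-RbKO minus Wild Type differences of 0.64, 0.71, 0.18, 0.23 and 0.20. Adipoq was detected on 1 and Myl1 on 2 of the 4 SC-RbKO arrays. The mesothelial gene Upk3b had 7.12, 5.70, 4.56 and 8.38 on SC-RbKO arrays 1 to 4, the same order as the interstitial collagen means on those arrays, and 5.48 to 6.02 on the SC-Rb+/- and 4.77 to 6.36 on the Wild Type arrays. On the Wild Type arrays the lowest Upk3b level, 4.77, was on Wild Type 9, which had the highest interstitial mean of its group. The other 4 genes were lowest among the SC-RbKO arrays on SC-RbKO 4, where the interstitial mean was highest, at 4.85 for Myl1, 4.63 for Adipoq, 13.20 for Hba-a1 and 6.78 for Alas2. Myl1 and Adipoq were near background. The Upk3b levels of 4.56 and 4.77 were as low as those of probes not detected on any array. Orders that rest on such levels say little. Msln, another mesothelial marker, did not pass the detection filter. The median difference of the interstitial collagens against Wild Type was 0.11 without SC-RbKO 4 and 0.23 without SC-RbKO 3, against 0.15 with all arrays. The part of such tissue in the collagen means was not tested. Leydig cell markers ran between 11.66 and 12.80 on SC-RbKO, 11.47 and 12.74 on SC-Rb+/- and 11.74 and 13.12 on Wild Type arrays, without Hsd3b1, Hsd3b6 and Fdx1, which did not pass the filter. Endothelial markers ran between 11.92 and 12.17, 11.82 and 12.19, and 11.90 and 12.10 in the same groups, and macrophage markers between 11.84 and 12.34, 12.06 and 12.20, and 11.88 and 12.34.

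Other genes of the matrix were taken from lists of 248 genes, of which 153 were measured. In SC-RbKO against Wild Type testes 95 of these lay above 0, and at an unadjusted limma p under 0.05 there were 6 higher and 1 lower, against 1.61 percent of all genes higher and 0.957 percent lower. Groups did not overlap for 2 of the 153 with SC-RbKO higher and for 1 with SC-RbKO lower. Over all genes these shares were 1.16 and 0.776 percent, so such gaps in the lists are near the background. Among other collagens 18 of 22 lay above 0 and 1 had an unadjusted p under 0.05: Col8a2, a short-chain collagen of type VIII, at 8.31 ± 0.20 in SC-RbKO (SD, n = 4) and 7.93 ± 0.27 in Wild Type testes (n = 5), a difference of 0.38 (SE 0.14). Col27a1, a fibrillar collagen known from cartilage, differed by 0.21 (SE 0.098). It was near background, detected on 4 of 4 SC-RbKO, 2 of 3 SC-Rb+/- and 2 of 5 Wild Type arrays. SC-Rb+/- minus Wild Type was -0.11 for Col8a2 and 0.0060 for Col27a1.

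Enzymes and chaperones of collagen synthesis had 12 of 22 above 0 and none with an unadjusted p under 0.05. Their smallest p-values belonged to Serpinh1, the collagen chaperone HSP47, at 0.17 (SE 0.095), and P4ha2, a prolyl hydroxylase subunit, at 0.099 (SE 0.071). Other basement membrane genes had 8 of 10 above 0, with Fras1, a protein of embryonic basement membranes, at 0.33 (SE 0.13) and Spock2, a proteoglycan, at 0.12 (SE 0.093). Fras1 was near background, detected on 4 of 4 SC-RbKO, 3 of 3 SC-Rb+/- and 2 of 5 Wild Type arrays. Its SC-Rb+/- minus Wild Type difference was 0.43, and that of Spock2 was -0.040. Other glycoproteins and proteoglycans had 23 of 32 above 0. Tnc, tenascin C, an adhesion-modulating glycoprotein, differed by 0.39 (SE 0.15) and Fbln2, fibulin 2, by 0.33 (SE 0.16). In SC-Rb+/- against Wild Type testes Tnc went the other way, at -0.38, and Fbln2 differed by -0.049.

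Matrix proteases and their inhibitors had 15 of 25 above 0. Plat, tissue plasminogen activator, had 10.30, 10.36, 10.35 and 10.47 in SC-RbKO and 10.24, 10.10, 10.04, 9.96 and 10.17 in Wild Type testes, so that all SC-RbKO arrays lay above all Wild Type arrays. Its difference was 0.27 (SE 0.091, limma unadjusted p = 0.0105, adjusted p = 1). Adamts9, a protease that cuts proteoglycans, differed by -0.21 (SE 0.12), with all SC-RbKO arrays below all Wild Type arrays. Neither mean difference was particular to SC-RbKO: SC-Rb+/- minus Wild Type was 0.30 for Plat and -0.22 for Adamts9. For Adamts9 the SC-Rb+/- arrays disagreed, at 10.05, 10.6 and 10.01, with SC-Rb+/- 6 above all Wild Type arrays.

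Matrix receptors had 15 of 29 above 0. The alpha 3 subunit of a laminin-binding integrin, Itga3, had 6.71, 6.91, 6.86 and 6.97 in SC-RbKO and 6.70, 6.46, 6.42, 6.69 and 6.48 in Wild Type testes. SC-RbKO lay above Wild Type on every array, by 0.31 on average (SE 0.093, limma unadjusted p = 0.00497, adjusted p = 1). Itga7, another laminin-binding alpha subunit, differed by 0.28 (SE 0.11). For SC-Rb+/- minus Wild Type the values were 0.12 for Itga3 and 0.079 for Itga7. Itgb5, a beta subunit, was the 1 gene of the further lists that was lower in SC-RbKO than in Wild Type testes at an unadjusted p under 0.05. Its difference was -0.22 (limma unadjusted p = 0.0371), and SC-Rb+/- minus Wild Type was -0.33. Of the transforming growth factor beta pathway, which induces collagen genes in fibroblasts, 5 of 14 genes lay above 0 and none had an unadjusted p under 0.05. Tgfb1, a ligand, differed by 0.19 (SE 0.089), and Tgfb3, another, by 0.15 (SE 0.10). Between SC-Rb+/- and Wild Type testes Tgfb1 differed by 0.21 and Tgfb3 by -0.016.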

How the data were processed

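Total RNA of 12 whole testis samples was measured on MouseWG-6 v2 BeadChips. The deposited unnormalized table holds, per the file headers, 45281 probes with a linear bead intensity and a detection p-value on every array. The authors' processed intensity values equalled a quantile normalization of these to within 4.87e-08 percent and served as an alternative. No source used here names the scanner software.

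Intensities were background-corrected from the detection p-values (limma 3.58.1 in R 4.3.3, neqc, offset 16), quantile normalized and taken to log2. The offset compresses differences of dim probes. The filter kept 20170 probes with a detection p under 0.05 on 3 arrays or more, which were named by the platform annotation (34885 probes with 1 symbol, 18 with several, 10378 with none, 34807 matched by Entrez identifier with 0 symbols changed), and the brightest represented each of 11076 genes. One lmFit and eBayes fit over the 12 arrays gave 3 contrasts, adjusted by Benjamini-Hochberg over all genes. The fit was also run on simulated data, whose outcome is not given here, so the size of difference it could call is not stated. The array is the replicate, and the number of arrays limits the precision.

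Members and lists were chosen with earlier results of these data known. Values on every array are given for members with an unadjusted p under 0.05 in any contrast and for the member of each role with the smallest p in SC-RbKO against Wild Type, and 2 genes are named per further list by that p. The array values of Nid2, the extremes of Col4a3, Col6a1 and Fn1, the markers Upk3b, Aard and Acta2, and Itgb5 of the further lists were singled out after they were seen.

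Alternatives were no background correction, an offset of 50, median scaling, the authors' values, dropping the filter on dim probes or setting it at a detection p under 0.01, averaging the probes of a gene, fitting each pair of groups alone, array weights, an intensity trend, the lower and upper 6 of the running numbers in the column names as a block (an arbitrary cut at their middle), and arrays left out. Each further detected probe, and class means with the other Col3a1 probe or without that gene, were added after seeing the data. Figures were drawn with Python 3.11.15 and matplotlib 3.10.9.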

Additional observations from a re-analysis of the deposited data

Results flagged for a closer look

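Within a group of 4 or 5 arrays, 7 of 66 combinations of a matrix gene and a group held 1 array far from the others of its group, where chance gives about 5 percent. Col1a1 on Wild Type 9 was 11.40, while the other Wild Type arrays lay between 10.77 and 10.95. Col1a2 on SC-RbKO 3 was 5.32, while the other SC-RbKO arrays lay between 5.51 and 5.53, and Eln on the same array was 10.99, against 11.19 to 11.22 on the others. Lama5 and Nid1 were high on SC-RbKO 1, at 7.74 against 7.54 to 7.57 and at 9.66 against 9.42 to 9.46 on the other SC-RbKO arrays. Timp1 on SC-RbKO 4 was 9.08, against 8.83 to 8.86 on the others. Sparc on Wild Type 8 was 13.30, against 13.45 to 13.48 on the other Wild Type arrays.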

How the results depend on the processing

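No matrix gene passed the adjusted threshold in any setting tried, the lowest adjusted limma p-values being 0.313 for SC-RbKO against Wild Type (array weights), 0.103 for SC-Rb+/- against Wild Type and 0.0815 for SC-RbKO against SC-Rb+/-. No paired analysis was possible because no label links arrays of different groups. With 1 array left out, the number of all genes past the threshold was 0 for SC-RbKO against Wild Type, 0 to 173 for SC-Rb+/- against Wild Type and 0 to 62 for SC-RbKO against SC-Rb+/-, with both maxima without SC-Rb+/- 5. It was 2 for SC-RbKO against Wild Type without Wild Type 12, SC-Rb+/- 6 and SC-Rb+/- 7 together, a setting that leaves 1 SC-Rb+/- array and also gave an interstitial collagen median of 0.112 for SC-RbKO against SC-Rb+/-. The basement membrane median of that comparison, -0.020, was 0.034 with median scaling and ran from -0.079 (without SC-Rb+/- 7) to 0.046 (without SC-Rb+/- 6). The cause was not tested.

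Signs that turned, where the difference exceeded its standard error, were as follows. For SC-RbKO against Wild Type, another probe gave -0.040 for Col4a4 and 0.0093 for Dcn. For SC-Rb+/- against Wild Type, Col3a1 was 0.00014 with the mean of its probes and 0.46 on its other probe, Hspg2 was 0.15 without the 3 arrays, and Col4a4 was -0.29 on another probe. For SC-RbKO against SC-Rb+/-, Col4a3 was 0.13 without SC-Rb+/- 6 (-0.48 without SC-Rb+/- 7), Hspg2 was -0.19 without the 3 arrays, Col3a1 was -0.49 on its other probe, and Dcn was 0.011 and 0.049 on other probes. With the other Col3a1 probe the interstitial mean of SC-Rb+/- against Wild Type was 0.071 and its excess over the basement membrane mean 0.011. Counting small differences too, 54 of 812 values in 16 members changed sign for SC-RbKO against Wild Type, 71 in 24 members for SC-Rb+/- against Wild Type and 63 in 20 members for SC-RbKO against SC-Rb+/-. Of the 14 members with over 1 detected probe, 5, 7 and 6 had another probe of opposite sign in these comparisons. Signal near background limits Col1a2 and, in the further lists, Col27a1 and Fras1. Among the markers it limits Adipoq, Myl1 and the lowest Upk3b levels.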
